A study of Mus musculus with 16 samples.

Results

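The stefin A cluster of mouse chromosome 16 is a run of near-identical genes for small cysteine protease inhibitors, and 7 of its genes, Stfa2l1, Cstdc4, Stfa1, Cstdc6, Cstdc5, Stfa2 and Stfa3, are described here in neonatal spleen cells with high and with low surface Nrp1 (neuropilin-1). The members were chosen by symbol among the 25562 genes of the RNA count table, and all 7 had a row and passed the filter on low counts, which left 15541 genes in all. They were picked with the RNA difference between Nrp1 high and Nrp1 low cells already known, so their RNA values are a description and carry no test. ATAC-seq, which marks open chromatin by transposase cutting, came from other libraries, and regions of the deposited ATAC table were taken where their Ensembl gene identifier was that of a member: 4 of 40796 regions, for 4 of the 7 genes.

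Nrp1 high cells and Nrp1 low cells were sorted from spleens of wild type 7-day-old mice, C57BL/6J for RNA and C57BL/6 for ATAC. RNA was read from 80000 cells a library, in 3 Nrp1 high and 3 Nrp1 low libraries, and ATAC from 50000 cells a library, in 5 Nrp1 high and 5 Nrp1 low libraries. The labels call these cells myeloid-derived suppressor cells, the sorting protocol names them monocytes, and no source used here says which surface markers besides Nrp1 set the gate. The protocol speaks of pooled RNA, and nothing says that libraries came from separate animals, so p-values measure the spread between libraries, which may be technical. RNA libraries held 23395363 to 35127433 estimated counts. Nrp1 itself, the sorting marker, had 97.3, 89.8 and 111 CPM (counts per 1000000, at library sizes scaled by TMM) in the Nrp1 high libraries, against 20.1, 57.8 and 41.5 CPM in the Nrp1 low libraries. The groups did not overlap, and the log2 difference was 1.32 ± 0.36 (SE, edgeR quasi-likelihood adjusted p = 0.259).

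Stefins are the intracellular, unglycosylated branch of the cystatin superfamily, and they block papain-like cysteine proteases such as cathepsins B, H, L and S by inserting a conserved wedge into the active site. Humans have a single stefin A gene, CSTA, where the mouse carries a multi-copy cluster, with names that begin with Stfa (stefin A), Csta (cystatin A) or Cstdc (cystatin domain containing). In the mouse, stefin A transcripts are known from neutrophils and their marrow precursors and from skin. Because the copies resemble each other, a read can fit several of them, and how the counts were split between copies is uncertain for every member.

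The copies also resemble each other around their starts, where the open regions of the ATAC table lie. RefSeq (GRCm38.p6) gave a window of 250 bases before to 50 bases after the start for 6 of the 7 members, all but Cstdc6. Their 60 bases up to the end of a run of 13 letters that all 6 share are shown to let the copies be compared, 5′ to 3′ on the gene's own strand, with that run in capitals. On the plus strand these are chr16:36156728-36156787 (Stfa2l1), chr16:36184133-36184192 (Cstdc4) and chr16:36277068-36277127 (Stfa1), and on the minus strand chr16:36367570-36367629 (Cstdc5), chr16:36408383-36408442 (Stfa2) and chr16:36455414-36455473 (Stfa3).
Stfa2l1: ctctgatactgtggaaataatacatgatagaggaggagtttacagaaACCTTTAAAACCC
Cstdc4: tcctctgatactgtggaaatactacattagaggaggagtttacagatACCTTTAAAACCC
Stfa1: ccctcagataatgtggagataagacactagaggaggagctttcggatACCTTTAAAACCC
Cstdc5: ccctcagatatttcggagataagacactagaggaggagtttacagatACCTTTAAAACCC
Stfa2: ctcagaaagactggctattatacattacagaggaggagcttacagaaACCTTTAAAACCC
Stfa3: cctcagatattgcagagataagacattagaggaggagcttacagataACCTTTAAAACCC
The run, ACCTTTAAAACCC, holds the letters TTTAAA and begins 36 bases before the RefSeq start in Stfa2l1, 34 in Stfa3, 33 in Stfa1, 32 in Cstdc4 and Stfa2, and 12 in Cstdc5. It was found as the longest run common to the 6 windows, after the sequences had been seen. On either strand, 9 of all 32851 RefSeq windows held it (0.0274%). These 9 were the 6 members and the neighbouring copies Csta3, Cstdc3 and Gm7260, all in the cluster on chromosome 16. The shorter TTTAAA alone stood in 13.2% of windows.

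Cstdc5, which has the largest ATAC difference of the members, and Stfa1 have the most similar windows, and both are shown whole with the same run in capitals. That of Cstdc5 is chr16:36367521-36367820 on the minus strand, and that of Stfa1 is chr16:36276898-36277197 on the plus strand.
Cstdc5: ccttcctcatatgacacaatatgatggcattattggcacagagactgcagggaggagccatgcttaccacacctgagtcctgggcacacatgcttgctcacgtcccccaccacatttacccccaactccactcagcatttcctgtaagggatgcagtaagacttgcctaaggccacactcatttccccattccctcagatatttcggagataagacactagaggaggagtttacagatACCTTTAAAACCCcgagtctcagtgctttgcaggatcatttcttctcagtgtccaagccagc
Stfa1: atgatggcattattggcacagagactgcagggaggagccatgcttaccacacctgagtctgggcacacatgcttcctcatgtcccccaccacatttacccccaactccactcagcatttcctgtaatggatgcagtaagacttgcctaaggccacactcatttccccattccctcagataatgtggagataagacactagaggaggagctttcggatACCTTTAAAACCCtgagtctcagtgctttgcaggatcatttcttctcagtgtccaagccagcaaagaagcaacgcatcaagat
Aligned to each other, these windows were identical at 269 of 279 bases (96.4%). Over the 15 pairs of members the identity of the aligned part ran from 76.7% for Cstdc4 with Stfa3 to 96.4%, with a median of 83.5%, and Stfa2 with Stfa2l1 reached 92.9%. Short motifs of blood cell factors, searched on both strands, divided the members in part. The letters TTGCNNAA, favoured by C/EBP factors, were found in Stfa1 and Cstdc5, 2 of 6 members, and in 10.8% of all windows. The letters AGATAA, favoured by GATA factors, were found in Stfa1, Cstdc5 and Stfa3, 3 of 6, and in 11.2% of all windows. The letters GAGGAA, favoured by PU.1, were found in 6 of 6 members and in 28.3% of all windows, and those of TGANTCA, favoured by AP-1, in 1 of 6 (Stfa3) and in 7.81% of all windows. A letter match describes the sequence and does not show that a factor binds there.

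All 7 members had lower RNA levels in Nrp1 high cells than in Nrp1 low cells, and in each of them the lowest Nrp1 low library stood above the highest Nrp1 high library. Stfa1 and Cstdc5 took most of the family's counts. Stfa1 (chr16:36277148-36285371, RefSeq, plus strand), a stefin A inhibitor, had 978, 816 and 799 CPM in the Nrp1 high libraries, against 6365, 4736 and 8041 CPM in the Nrp1 low libraries. The log2 difference was -2.88 ± 0.27 (SE, n = 3 libraries each), which is 7.38 times more in Nrp1 low cells. Cstdc5 (chr16:36359382-36367570, minus strand), a stefin-like copy, had 697, 605 and 579.8 CPM in the Nrp1 high libraries, against 6273, 4575 and 7864 CPM in the Nrp1 low libraries, a log2 difference of -3.31 ± 0.28. For both genes replicate 2 was the lowest of the Nrp1 low libraries and replicate 3 the highest, and replicate 1 was the highest of the Nrp1 high libraries.

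The other Cstdc genes, also stefin-like copies with a cystatin domain, had differences of similar size. Cstdc4 (chr16:36184212-36188111) had 179, 139 and 159 CPM in the Nrp1 high libraries, against 1259.8, 973 and 1689.9 CPM in the Nrp1 low libraries, a log2 difference of -3.04 ± 0.27. Cstdc6 (chr16:36321665-36334332) had 4.05, 3.09 and 3.34 CPM in the Nrp1 high libraries, against 31.3, 28.1 and 46.5 CPM in the Nrp1 low libraries, a log2 difference of -3.34 ± 0.31. The groups stood well apart in both genes. The Cstdc6 values rest on 101 to 126 counts in each Nrp1 high library and 674 to 1117 in each Nrp1 low library, the fewest of the 7, and whether reads of its abundant copies add to them was not tested.

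The remaining Stfa genes, all stefin A copies, had differences from -1.98 to -2.65 on the log2 scale. Stfa2l1 (chr16:36156811-36161948) had 45.3, 38.6 and 43.7 CPM in the Nrp1 high libraries, against 264, 209.7 and 325 CPM in the Nrp1 low libraries, a log2 difference of -2.65 ± 0.22. Stfa2 (chr16:36403946-36408363) had 36.7, 27.2 and 33.6 CPM in the Nrp1 high libraries, against 116, 102 and 167 CPM in the Nrp1 low libraries, a log2 difference of -1.98 ± 0.25. Stfa3 (chr16:36450537-36455392) had 106, 65.3 and 74.9 CPM in the Nrp1 high libraries, against 302, 261 and 476 CPM in the Nrp1 low libraries, a log2 difference of -2.08 ± 0.30. Stfa2 and Stfa3 thus had the smallest differences of the 7, though the groups did not overlap in either. Of all genes tested, 0.676% were called lower in Nrp1 high cells (edgeR quasi-likelihood test, Benjamini-Hochberg adjusted p under 0.05), 0.00643% were called higher, and 10.8% had groups that did not overlap with Nrp1 high below. All 7 members were called lower, which is how they came to be chosen, so nothing is read from that count. Their median log2 difference was -2.88, where the median of all genes tested was 0.01.

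**Figure D1:**
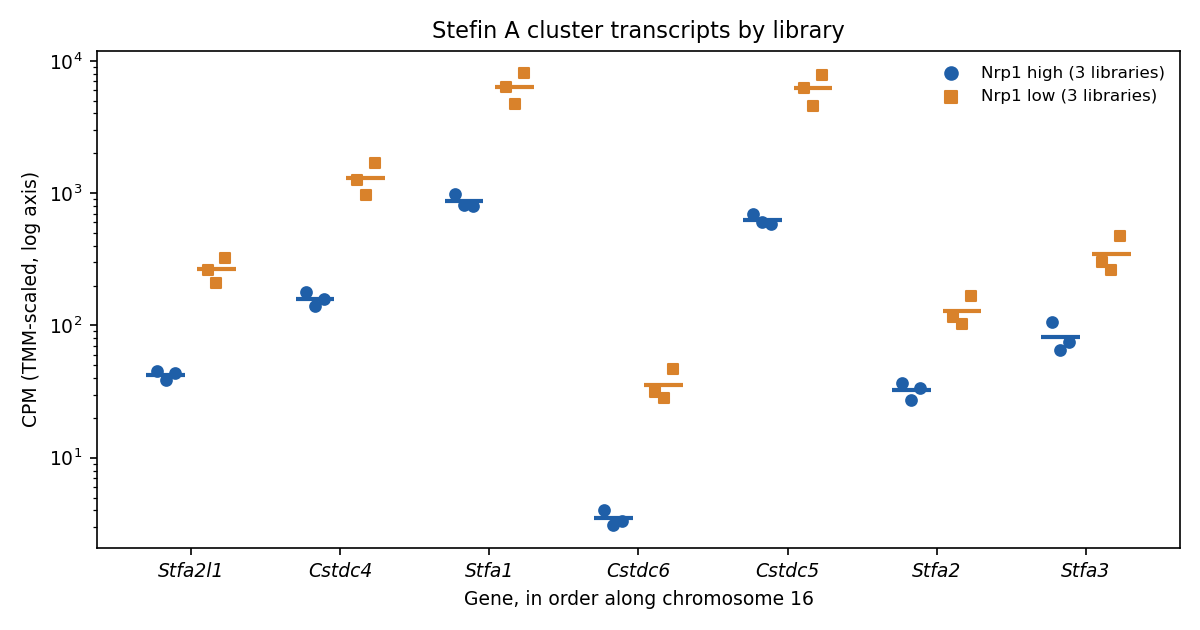
Level of each stefin A cluster member in each RNA library, in CPM at TMM-scaled library size on a log axis, with genes in their order along chromosome 16. Points are libraries and lines are means of 3; in every gene the Nrp1 high libraries (left, circles) lie below the Nrp1 low libraries (right, squares), from 4.05 CPM at most against 28.1 CPM at least in Cstdc6 to 978 CPM at most against 4736 CPM at least in Stfa1.

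The sum over the members does not depend on how reads were split between them. The 7 genes together had 2046, 1694 and 1694 CPM in the Nrp1 high libraries, against 14610.2, 10885 and 18609 CPM in the Nrp1 low libraries. The means were 1811 ± 203 CPM in Nrp1 high cells and 14701 ± 3863 CPM in Nrp1 low cells (SD, n = 3 each), 8.12 times more in Nrp1 low cells. The log2 ratio of the means was -3.02, and fitting the sum as a single row gave -3.02 ± 0.28 (SE). The family thus took 0.176% to 0.221% of all counts in Nrp1 high libraries and 1.11% to 1.66% in Nrp1 low libraries. The bulk libraries cannot tell fewer cells of a stefin-rich type apart from less stefin RNA per cell. Leaving out Stfa1 and Cstdc5, a choice made after the values were seen, the remaining 5 members summed to a log2 ratio of -2.70.

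The make-up of the family's counts also differed between the groups. Stfa1 and Cstdc5 together held 81.4% to 83.9% of the family's counts in Nrp1 high libraries and 85.5% to 86.5% in Nrp1 low libraries, as shares of counts that are not corrected for transcript length. Stfa1 had 1.40, 1.35 and 1.38 counts for each count of Cstdc5 in the Nrp1 high libraries, against 1.01, 1.04 and 1.02 in the Nrp1 low libraries. Stfa3 had 0.108, 0.0800 and 0.0937 counts for each count of Stfa1 in the Nrp1 high libraries, against 0.0475, 0.0551 and 0.0592 in the Nrp1 low libraries. These ratios separated the groups, with every Nrp1 high library above every Nrp1 low library. The same held for Stfa2 relative to Stfa1, at 0.0333 to 0.0421 in Nrp1 high and 0.0181 to 0.0215 in Nrp1 low libraries, and for Cstdc4 relative to Cstdc5, at 0.230 to 0.275 in Nrp1 high and 0.201 to 0.215 in Nrp1 low libraries. Cstdc6 relative to Cstdc5 overlapped, at 0.00511 to 0.00581 in Nrp1 high and 0.00499 to 0.00615 in Nrp1 low libraries. Whether a shift in the assignment of shared reads contributes to these ratios was not tested. Other pairs of members were not compared, and how often pairs of other genes separate the groups was not counted. The separation is thus only a description of these libraries.

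**Figure D2:**
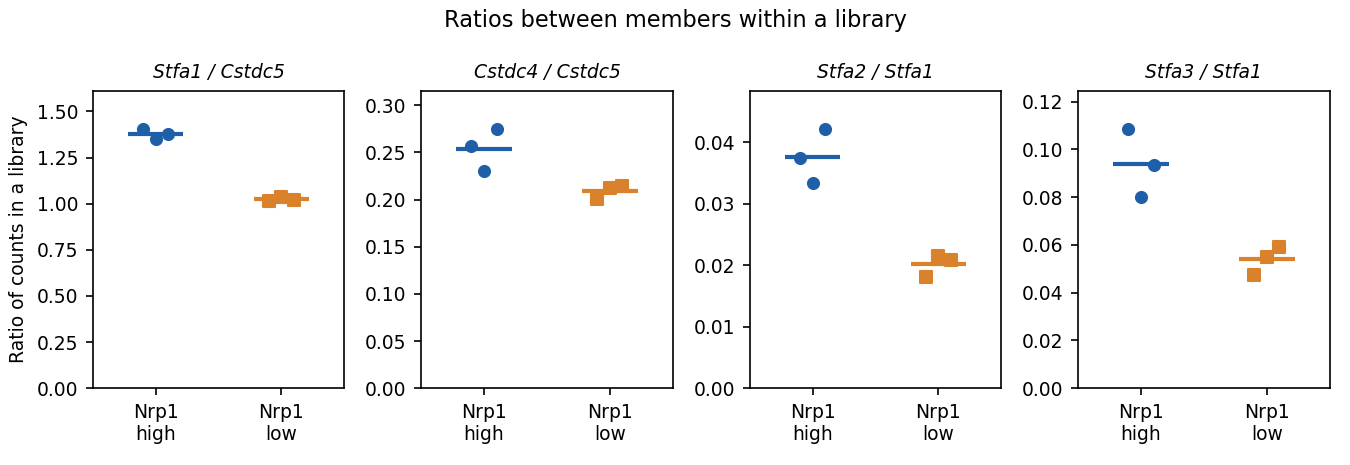
Ratio of the estimated counts of pairs of members within each library, each axis starting at 0, with lines at the mean of 3 libraries. Nrp1 high libraries (left, circles) lie above Nrp1 low libraries (right, squares) in the 4 pairs drawn, at 1.35 to 1.40 against 1.01 to 1.04 for Stfa1 over Cstdc5. Cstdc6 over Cstdc5, which overlapped between the groups, is not drawn.

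Further stefin A copies with a row in the table lie inside the same 299 kb span or beside it. Csta3 averaged 2.90 ± 0.35 CPM in Nrp1 high cells and 13.7 ± 3.03 CPM in Nrp1 low cells (SD, n = 3 each), and it was called lower (log2 difference -2.24 ± 0.32 SE, edgeR quasi-likelihood adjusted p = 0.0210). The Csta3 call was lost without any one of the 3 Nrp1 high libraries and without Nrp1 low replicate 3, with edgeR, DESeq2 or limma-voom adjusted p from 2.06e-08 to 0.234 over the alternatives. Csta2 averaged 21.3 ± 3.83 CPM in Nrp1 high cells and 70.3 ± 22.7 CPM in Nrp1 low cells, a log2 difference of -1.72 ± 0.29 that missed the threshold (edgeR adjusted p = 0.0513, and 1.99e-05 to 0.323 over the alternatives). It passed with upper-quartile scaling, with other filters, with DESeq2, with limma-voom and without Nrp1 low replicate 1 or 2. Csta1, 25.6 kb before the span, had 0 to 11 counts a library and was not tested. Copies outside the list, looked at after their values were seen, were at trace levels. Cstdc3 had 0 counts in all 3 Nrp1 high libraries and 9, 22 and 11 counts in the Nrp1 low libraries, and Gm7260 had 0 counts in all 3 Nrp1 high libraries and 7, 4 and 42 counts in the Nrp1 low libraries. Gm6815 had 1, 2 and 0 counts in the Nrp1 high libraries and 18, 16 and 12 counts in the Nrp1 low libraries, and it did not pass (edgeR adjusted p = 0.351). Gm10913, with 4, 0 and 7 counts in the Nrp1 high libraries and 0, 6 and 0 counts in the Nrp1 low libraries, overlapped between the groups and was not tested. Taking all stefin A copies with a row together, the summed log2 ratio was -3.01. It could hardly differ from that of the 7 members alone, which averaged 14701 CPM in Nrp1 low cells against 70.3 CPM for Csta2 and 13.7 CPM for Csta3. Nothing is read from it about the further copies.

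No tested gene outside the span and within 500 kb of it was called. These were 16 genes, with 0 called by edgeR, by DESeq2 or by limma-voom and 1 at an unadjusted edgeR p under 0.05, with log2 differences from -0.66 to 0.93 and a lowest edgeR adjusted p of 0.397. The nearest tested on one side were Ccdc58 at 64.7 kb (-0.37), Fam162a at 85.2 kb (-0.66) and Wdr5b at 114 kb (-0.18). On the other side they were Cd86, a T cell costimulatory ligand, at 114 kb (-0.23), Ildr1 at 239 kb (-0.45) and Slc15a2, a peptide transporter, at 295 kb (0.50). Wdr5b turned to 0.0253 with library totals in place of TMM scaling and to 0.0347 without Nrp1 low replicate 1.

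Read by the name of the authors' comparison, the member regions that passed the test were more open in Nrp1 high cells, where the transcripts were lower. That name, which puts Nrp1 high before Nrp1 low, is the only source for the direction of the fold. Were the fold coded the other way round, the same regions would be less open in Nrp1 high cells, the direction of the RNA. In the authors' deposited table, 2 of the 4 member regions had an FDR under 0.05, and both had a fold above 0, read here and below as higher in Nrp1 high cells. Of all 40796 regions in the authors' deposited table, 2.56% were called higher and 4.99% lower by that rule, and the median log2 fold was -0.09. The region at Cstdc5 (chr16:36367429-36367828, GRCm38) had a log2 fold of 1.72 and an FDR of 0.000676 in the authors' deposited table. The region at Stfa2l1 (chr16:36156448-36156847) had a log2 fold of 1.03 and an FDR of 0.0129 in the authors' deposited table. Both regions cover the annotated gene start and the shared 13-letter run printed above.

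The other member regions did not pass. The region at Stfa1 (chr16:36276878-36277277), which also covers the start and the run, had a log2 fold of 0.50 and an FDR of 0.241 in the authors' deposited table. The region at Stfa3 (chr16:36455562-36455961) lies 170 bases before the start and does not reach the run, and it had a log2 fold of -0.19 and an FDR of 0.510 in the authors' deposited table. Cstdc4, Cstdc6 and Stfa2 had no region of their own, and the nearest listed regions lay 25674 bases from the start of Cstdc4, 12504 bases from the start of Stfa2 and 13626 bases from the nearer end of Cstdc6. The windows of Cstdc5 and Stfa1 fell whole (300 bases) inside their regions, beside 287 bases for Stfa2l1 and 81 bases for Stfa3. With window identities up to 96.4%, ATAC reads may also fit more than a single copy, and no source used here says how such reads were treated.

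Across the span with 1 kb on each side, 9 of 10 regions in the authors' deposited table had a fold above 0. Of these 10 regions 3 were called higher and 0 lower, with a median log2 fold of 0.62. Regions at copies that resemble each other may share reads, so these 10 may not be separate observations. The third called region lay beside the predicted gene Gm24218 (chr16:36385572-36385971, log2 fold 1.23, FDR 0.0261 in the authors' deposited table). Of all 40796 regions in the authors' deposited table, 15704 had a fold above 0, and 2.56% were called higher and 4.99% lower. Of the 19352 regions within 3000 bases of a start, 7858 had a fold above 0. Among the 6 regions of the span not assigned to a member, those at Csta3 and Cstdc3 each had a log2 fold of 0.62, with FDRs of 0.264 and 0.209 in the authors' deposited table. The shared run lay inside a listed region at 4 of its 9 places (Stfa2l1, Stfa1, Cstdc3 and Cstdc5), and all 4 of these had a fold above 0. In the 500 kb beyond the span on each side, 45 regions of the authors' deposited table had a median log2 fold of -0.26, with 0 called higher and 3 lower (at Parp9, Gm8538 and Hcls1). The deposited table gives no value per library, so neither the spread nor an overlap of groups can be shown. At Nrp1 itself, 2 intronic regions were called higher (log2 folds of 1.47 and 1.502) and 1 was called lower (-0.39) in the authors' deposited table, out of 8.

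**Figure D3:**
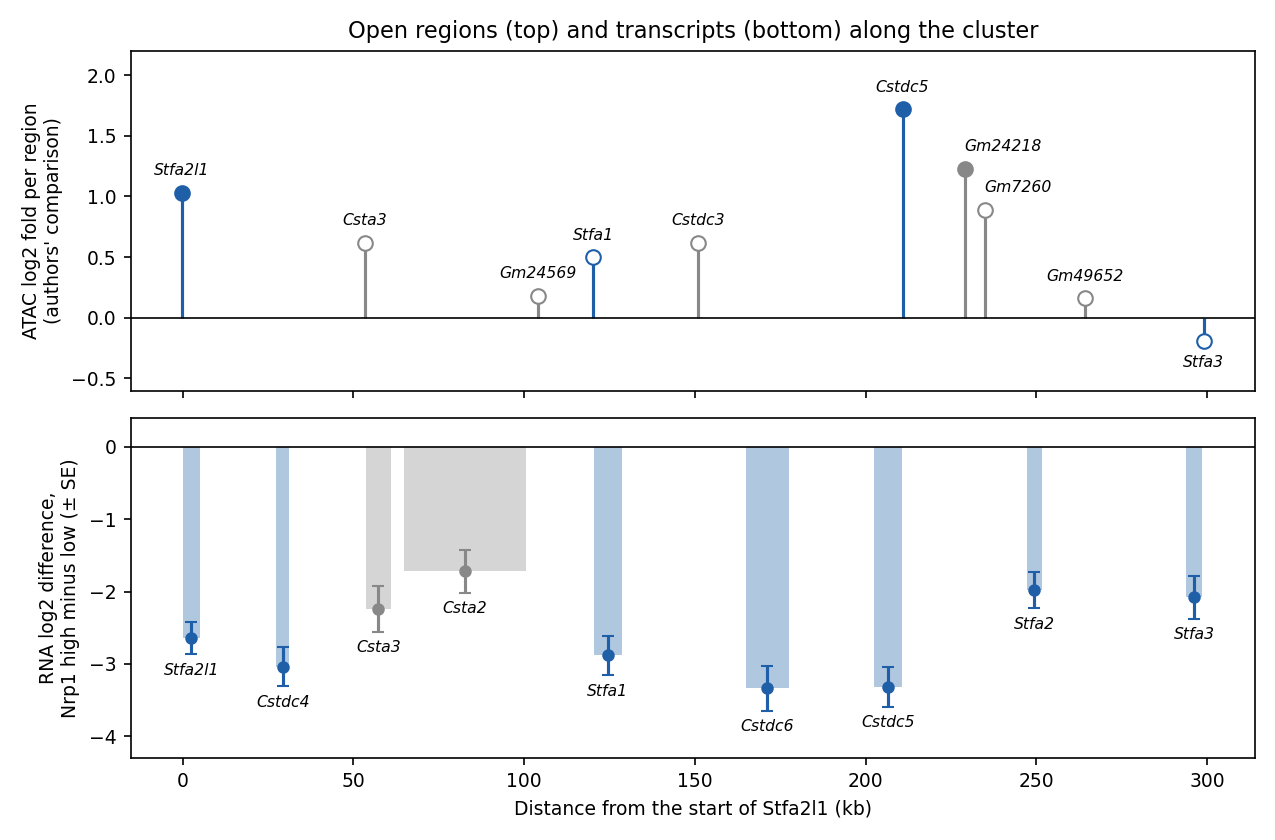
Log2 fold of each open region (top, the authors' comparison of Nrp1 high with Nrp1 low) and RNA log2 difference ± SE (bottom, bars as wide as the gene) by distance from the start of Stfa2l1 in kb. Blue marks members and grey other genes, and filled points at the top have a deposited FDR under 0.05. In the span 9 of 10 regions lie above 0, beside 15704 of all 40796 regions, though regions at similar copies may share reads. The transcripts of all 7 members lie at -1.98 or lower.

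Of the papain-like cysteine cathepsins, the family that holds stefin targets such as cathepsins B, H, L and S, 9 were tested. Among these 9, 0 passed in edgeR (quasi-likelihood), in DESeq2 or in limma-voom, and 0 had an unadjusted edgeR p under 0.05. All 9 had log2 differences below 0, from -0.71 to -0.18. Ctsb, a lysosomal endopeptidase, averaged 1246 ± 259 CPM in Nrp1 high cells and 1773 ± 396 CPM in Nrp1 low cells (SD, n = 3 each), a log2 difference of -0.51 (edgeR adjusted p = 0.447). Ctss, the main elastolytic cathepsin of antigen presenting cells, had -0.43 (adjusted p = 0.465), Ctsh had -0.25 (0.623) and Ctsw, of cytotoxic lymphocytes, had -0.71 (0.464). The groups overlapped in all 4 of these genes.

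Most inhibitors of the same superfamily outside the cluster did not pass either. Of 8 other cystatins tested, 1 was called lower: Cst7 (cystatin F, an endolysosomal inhibitor of leukocyte cathepsins) averaged 13.7 ± 2.74 CPM in Nrp1 high cells and 54.5 ± 9.64 CPM in Nrp1 low cells (log2 difference -1.99 ± 0.26 SE, edgeR adjusted p = 0.0156). The Cst7 call was lost without any one of the 3 Nrp1 high libraries and without Nrp1 low replicate 3, with adjusted p from 3.29e-09 to 0.124 over the alternatives (edgeR, DESeq2 and limma-voom). Cstb, the other intracellular stefin, averaged 115 ± 10.6 CPM in Nrp1 high cells and 138 ± 30.8 CPM in Nrp1 low cells (log2 difference -0.26, edgeR adjusted p = 0.569). The secreted inhibitor Cst3 (cystatin C) had a log2 difference of -0.02 (edgeR adjusted p = 0.965), and Ahsg and Hrg, cystatin-domain plasma proteins, had 0.39 (0.489) and 0.99 (0.691). Hrg was hardly detected, at 0 to 1.25 CPM a library with an SE of 1.19, as was Fetub of the same list, at 0 to 0.73 CPM. The median of the 8 was -0.04, beside -2.88 for the cluster.

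Among 16 protease inhibitors of other families, 2 were called lower. Serpinb1a, an inhibitor of neutrophil serine proteases, averaged 183 ± 27.2 CPM in Nrp1 high cells and 876 ± 203 CPM in Nrp1 low cells (log2 difference -2.26 ± 0.24 SE, edgeR adjusted p = 0.00719). Wfdc21, of the whey acidic protein family, had -2.68 ± 0.32 (edgeR adjusted p = 0.0108). Both calls were lost without Nrp1 high replicate 1 and without Nrp1 high replicate 3, and that of Wfdc21 also without Nrp1 high replicate 2, with adjusted p over the alternatives (edgeR, DESeq2 and limma-voom) from 3.78e-15 to 0.106 for Serpinb1a and from 1.91e-12 to 0.115 for Wfdc21. Spint2 (-1.71, adjusted p = 0.0589) and Slpi (-1.35, 0.141), an inhibitor of elastase and cathepsin G, did not pass.

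Markers of neutrophils moved with the family. Of 22 neutrophil markers, all 22 had log2 differences below 0 and 15 were called lower, with a median of -2.46, among them Camp (-3.71), Itgb2l (-3.09), Olfm4 (-2.77) and Ltf (-2.68), genes of granule proteins and of a myeloid integrin subunit (edgeR adjusted p = 0.00416 for each of the 4). The summed level of the 22 ran from 8006 to 9226 CPM in Nrp1 high libraries and from 44385 to 74409.5 CPM in Nrp1 low libraries. No marker of the list was at 0, the lowest count in a library being 75, and Ly6g, the defining surface marker, averaged 4.26 ± 2.00 CPM in Nrp1 high cells and 8.52 ± 1.26 CPM in Nrp1 low cells. Divided by that sum, the stefin family stood at 0.225, 0.184 and 0.212 in the Nrp1 high libraries, against 0.221, 0.245 and 0.250 in the Nrp1 low libraries, so on this scale the groups overlapped. A few genes carry most of the sum. In Nrp1 low cells S100a8, Ngp, S100a9 and Camp averaged 24256, 12327, 9244 and 8417 CPM, where the sum averaged 61677 CPM. The ratio thus describes the family beside these genes more than beside the list at large. The family was 8.12 times and this sum 7.03 times higher in Nrp1 low cells, so similar ratios in both groups follow from those differences. Members and list were chosen with earlier results of these data known, and nothing is read from the overlap. The part of neutrophil RNA in the stefin difference was not tested.

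The 8 genes listed as markers of primary granules, which are made at the promyelocyte stage, all had log2 differences below 0. Of these 7 were called lower, and the median was -2.06. Not every gene of this list encodes a granule protein. Fcnb had -2.58, Ms4a3 -2.32, Prss57 -2.05 and Prtn3 -1.59 (edgeR adjusted p from 0.00416 to 0.0108), and the Prtn3 call was also lost without Nrp1 high replicate 1 (0.0938) and without Nrp1 low replicate 3 (0.0813). The summed level of the 8 was 2746 to 4923 CPM in Nrp1 high libraries and 11898 to 18593 CPM in Nrp1 low libraries. Of 16 monocyte markers, 0 were called by edgeR or limma-voom, 5 had an unadjusted edgeR p under 0.05, 8 lay below 0 and 8 above, and their median was 0.02. DESeq2 called 4 of them, Nr4a1 (edgeR log2 difference -0.89), Fcgr4 (-1.37) and Cd14 (-1.33) lower and F13a1 (0.77) higher. Their summed level overlapped between the groups, at 27072 to 35912 CPM in Nrp1 high libraries and 32008 to 47860.2 CPM in Nrp1 low libraries. Of 19 markers of other blood cells, 4 were called lower, the platelet genes Ppbp, Gp5 and Itga2b (-3.56, -2.80 and -2.05) and Nkg7 of cytotoxic lymphocytes (-1.80). The T and NK cell markers Cd3d, Cd3e and Ncr1 were not called (-0.36, -0.10 and -0.42, edgeR adjusted p = 0.613, 0.929 and 0.759). They averaged 9.90, 2.11 and 1.66 CPM in Nrp1 low cells, against 173 CPM for Nkg7. The calls of Gp5 and Itga2b were lost with library totals, with limma-voom and without any one library other than Nrp1 low replicate 1 (edgeR, DESeq2 and limma-voom adjusted p over the alternatives from 6.25e-07 to 0.241 for Gp5 and from 1.19e-05 to 0.315 for Itga2b). The Nkg7 call was lost without Nrp1 high replicate 1 (edgeR adjusted p = 0.123) and without Nrp1 low replicate 3 (0.123), and the Ppbp call without Nrp1 low replicate 3 (0.0621). Without Nrp1 high replicate 3, edgeR called 0 genes of the table, members and marker lists included (909 at an unadjusted p under 0.05).

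**Figure D4:**
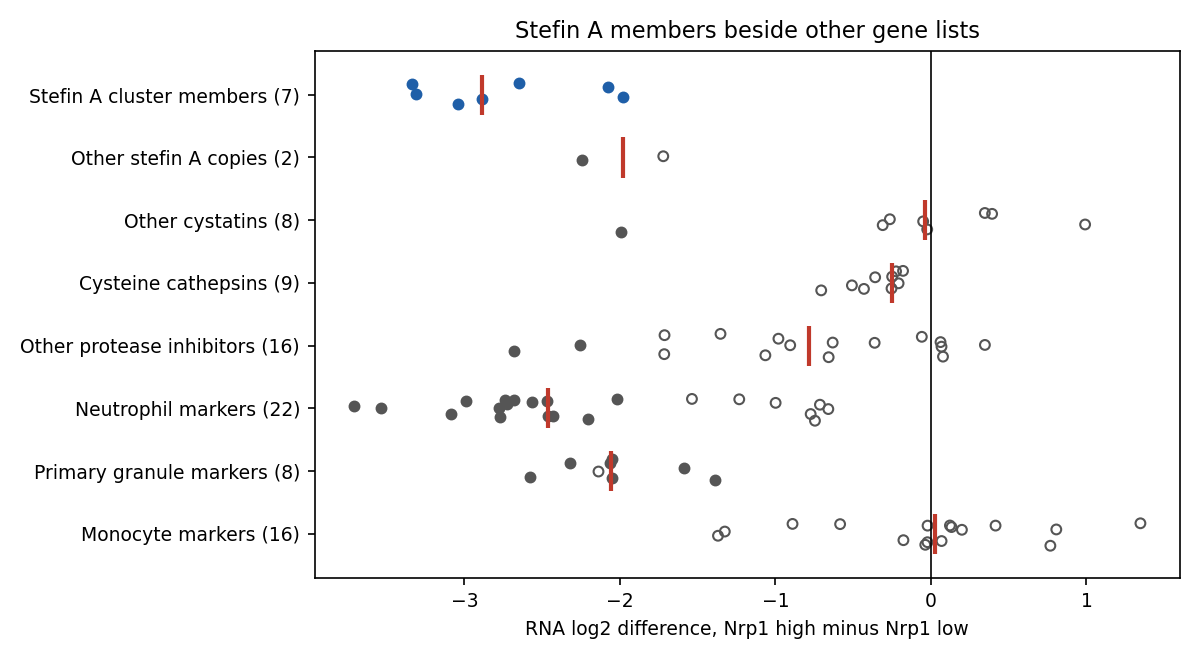
RNA log2 difference, Nrp1 high minus Nrp1 low, of each tested gene by list, with the number tested in brackets. Filled points have an edgeR adjusted p under 0.05 and red lines are list medians, at -2.88 for the stefin members, -0.25 for cysteine cathepsins, -2.46 for neutrophil markers and 0.02 for monocyte markers.

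The genes whose levels ran most like the family sum over the 6 libraries were found by the root mean square difference of centred log2(CPM + 1) values, among 8639 genes with a mean of at least 10 CPM, whose median distance was 1.51. The nearest 5 that are not members were S100a9 (0.136), S100a8 (0.166), 4930438A08Rik (0.223), Mrgpra2b (0.234) and Wfdc21 (0.249). S100a9 and S100a8, which encode calprotectin, had 929 to 1467 and 3261 to 3988 CPM in Nrp1 high libraries, against 6557 to 12749 and 16573 to 31165 CPM in Nrp1 low libraries. Among the members, Cstdc4 (0.060), Stfa1 (0.069), Cstdc6 (0.087), Cstdc5 (0.147) and Stfa2l1 (0.212) lay close to the sum, of which they are part. Stfa3 (0.497) and Stfa2 (0.545) lay further from it than these 5 outside genes. Values were centred over both groups, so the distance mostly reflects the size of the difference between Nrp1 high and Nrp1 low. The members were chosen on that difference. In the order given, the 5 outside genes had log2 differences of -2.99, -2.74, -3.04, -2.93 and -2.68, beside -3.02 for the family sum. The likeness describes these 6 libraries and is no separate result about the family.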

How the data were processed

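RNA was amplified with a low-input template-switching kit and sequenced in pairs of 150 bases, per the labels' protocols. The deposited RNA values are estimated counts per gene, per the layout of the table. The submitters' processing notes name HISAT2, StringTie and build GRCm38. Strand, and how multi-mapped reads were handled, is not stated in the labels. In each library the value 4 was 1.22 to 1.53 times as frequent as the mean of 3 and 5, which leaves the scale of 1 count uncertain. For ATAC-seq the authors deposited a comparison of the groups: per region it gives the log2 fold, the p-value and its FDR. The submitters' processing notes name BWA, MACS2, DiffBind, edgeR and ChIPseeker. The labels name a DESeq2 table and the one used is named for edgeR.

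Low counts were removed with filterByExpr, libraries were scaled by TMM, and group was the only term of a robust quasi-likelihood fit in edgeR 4.0.16 (R 4.3.3). P-values were adjusted by Benjamini-Hochberg over 15541 genes and called under 0.05. Log2 differences are Nrp1 high minus Nrp1 low. The fit was tested on simulated data. DESeq2 1.42.0, limma 3.58.1, other scalings, filters, thresholds, a replicate block and leaving out each library were the alternatives. Windows were paired by local alignment (Biopython 1.88).

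Members and lists were chosen with earlier results of these data known. Named are all members, the other copies, up to 4 genes per list of lowest p, the 3 nearest tested genes per side, called neighbours and the 5 most like profiles. Cst3, Ly6g, the other neutrophil markers not called and the called ATAC regions of list genes were named after their values were seen.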

Additional observations from a re-analysis of the deposited data

How the results depend on the processing

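The log2 ratio of the stefin family sum was -3.02 and stayed between -3.26 and -2.70 over 18 alternatives, with leave-one-out values from -3.20 to -2.82. The lowest in size, -2.70, came without Stfa1 and Cstdc5. The 7 members were called lower under every scaling, filter and tool tried, and 0 to 7 were called when 1 library was left out (0 without Nrp1 high replicate 3, 5 without Nrp1 high replicate 1 or 2 or Nrp1 low replicate 3). Genes called in all were 106, with 403 by DESeq2 (19.1% of them higher, against 0.943%), 169 at adjusted p under 0.1, 39 under 0.01 and 0 to 125 with 1 library left out. At an unadjusted p under 0.05, 909 genes passed without Nrp1 high replicate 3. Of the cystatins and cathepsins 1 was called, and 0 to 1 with 1 library left out. Of the neighbours, counted with the copies inside the span, 1 was called: Csta3, which lies inside it. With upper-quartile scaling, no filter, a filter at 1 CPM, DESeq2 or limma-voom 2 were called, Csta3 and Csta2, both stefin A copies inside the span. With 1 library left out 0 to 2 were called. Member ATAC regions called were 2, and 1 at FDR under 0.01. Library totals moved the median of all genes to 0.20. Wdr5b, at -0.18, turned to 0.0253 with library totals and ran from -0.31 (without Nrp1 low replicate 2) to 0.0347 (without Nrp1 low replicate 1) with 1 library left out. With the replicate number as a block, 0 genes, 0 members, 0 cystatins and cathepsins and 0 neighbours were called by edgeR (943 genes at an unadjusted p under 0.05), and the family sum was -2.99. Same-numbered libraries correlated at -0.34, -0.39 and 0.03 in their deviations from the group means. Differently numbered libraries correlated at -0.26 to 0.49, the highest being Nrp1 high replicate 2 with Nrp1 low replicate 1. With 3 libraries a group, these values cannot settle whether libraries were paired, by number or otherwise. Depth of the ATAC libraries is unknown.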

Other observations

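Genes outside the cluster also combined lower RNA with a promoter fold above 0, which is more open in Nrp1 high cells if the comparison's name gives the direction. With the fold coded the other way round, these promoters would be less open in Nrp1 high cells, the direction of their RNA, and higher and lower would change places in the counts that follow. Of 98 other genes called lower in Nrp1 high cells by RNA, 77 had a region within 3000 bases of a start, and at the region of lowest p the authors' deposited table called 7 higher in Nrp1 high cells (9.09%) and 2 lower (2.60%). Among all 10821 tested genes with such a region, 233 were called higher (2.15%) and 533 lower (4.93%) in the authors' deposited table. The 7 were Tnfsf13b, Slco4c1, S100a9, Camp, 4930438A08Rik, Tinagl1 and Klf5, with log2 folds from 1.83 for Tnfsf13b to 0.49 for Klf5 in the authors' deposited table, and the 2 were Ltf (-0.62) and Hdc (-1.22). S100a9, the calprotectin subunit nearest to the stefin sum by the distance above, had a log2 fold of 1.11 in the authors' deposited table. Its RNA log2 difference was -2.99. These genes were looked at after their values were seen, and the cause of the opposite signs was not tested.

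Over the whole neutrophil list the regions were mixed in direction. Of 41 regions at 19 of its 22 genes, the authors' deposited table called 3 higher in Nrp1 high cells (at Itgb2l, S100a9 and Camp) and 2 lower (at Ltf and Mmp8), with a median log2 fold of -0.01. Of 54 regions at the 16 monocyte markers, the authors' deposited table called 0 higher and 5 lower, with a median log2 fold of -0.18. At Ccr2, a chemokine receptor of monocytes, 2 regions had log2 folds of -0.80 and -0.82 in the authors' deposited table, while its RNA log2 difference was 0.81 (edgeR adjusted p = 0.356). Of 29 cathepsin regions the authors' deposited table called 1 higher, at Ctsf (0.92). The 2 called stefin regions, at Cstdc5 (1.72) and Stfa2l1 (1.03), thus lie in the same direction as those at Itgb2l, S100a9 and Camp. They lie in the other direction from those at Ltf and Mmp8.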
